A study of Mus musculus with 594 samples.

Results

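The arrays described here are those of 5-azadeoxycytidine, known as the drug decitabine, set against the DMSO vehicle in a pair of mouse pancreatic tumour lines. They were picked by the compound name in the sample titles, which gives 18 of the 594 arrays of the series. In alpha-TC1, a glucagon-producing islet tumour line, and in beta-TC3, an insulin-producing one, 5-azadeoxycytidine was given at 10 µM for 1, 6 or 24 h, with 3 arrays per line and time. Zebuarine, as the labels spell it, and RG-0108 were profiled at the same dose and times with 18 arrays each. The DMSO controls had 14 arrays at each time in alpha-TC1, and 12, 10 and 12 arrays in beta-TC3 at 1, 6 and 24 h. Both lines were grown in low-glucose medium with serum, cells were plated 24 h before treatment, and every compound was added from a DMSO stock. Each line is a tumour line and not an islet, and no label says that the replicates were separate cultures, so p-values measure the spread between arrays, which may be technical.

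As background, 5-azadeoxycytidine is a cytidine analogue that dividing cells phosphorylate and build into new DNA. There it traps the DNA methyltransferases on the strand, and the methyl marks on cytosines of CpG pairs are then lost as cells divide. Genes that a dense methylated promoter keeps silent in somatic cells, germline genes above all, are the textbook readout of such loss. Methylation itself was not measured on these arrays.

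The intensity of each probe set was read on the log2 scale, on which a step of 1 is a 2-fold change. The arrays were alike in level, with medians between 4.36 and 4.73. Gcg, the glucagon gene, averaged 12.46 in alpha-TC1 at 24 h under 5-azadeoxycytidine and 12.32 in DMSO, and Ins2, an insulin gene, averaged 13.28 and 13.20 in beta-TC3, so each line carried its own hormone. Gcg was also high in beta-TC3, at 9.50, 10.55 and 10.50 under 5-azadeoxycytidine, while the 12 DMSO arrays ran from 6.18 to 10.43 with a median of 9.12. With batch as a term this difference was 0.28 ± 0.20 (SE) with an adjusted p of 0.49, and its part in the beta-TC3 results was not tested. In the other direction, Ins2 in alpha-TC1 gave 5.79, 4.80 and 5.40 under 5-azadeoxycytidine, against a DMSO range of 3.37 to 5.78 with a median of 4.27 (adjusted p = 0.29). Other islet markers were mixed in DMSO at 24 h. Irx1, Irx2 and Pou3f4 were higher in alpha-TC1, and Pdx1, Nkx6-1 and G6pc2 in beta-TC3. Yet the alpha cell marker Ttr averaged 11.40 in alpha-TC1 and 12.87 in beta-TC3. The beta cell marker Slc2a2 was low in both, at 2.92 and 2.98. Sst, the somatostatin gene, averaged 12.71 in beta-TC3. All 17 markers of exocrine, duct, stromal, endothelial, immune and liver cells were near background, below a DMSO mean of 5, in both lines at 24 h. None was called in alpha-TC1, and in beta-TC3 Vim, a filament gene of stromal cells, rose to 3.86, 2.98 and 3.72 under 5-azadeoxycytidine, against 2.61 to 2.99 in DMSO (0.67, adjusted p = 0.024), a call that ended without replicate 1 or 3. Sample titles carry an HTA code whose number was read here as the array plate, which no label states. The arrays read as plate 1 stood further from their group than most others. Among the 5 DMSO arrays there, the root mean square distance from the group was 0.344 to 0.382, and over the other 71 DMSO arrays it was 0.155 to 0.366. No 5-azadeoxycytidine array lay on plate 1, whereas 6 zebuarine arrays and 2 RG-0108 arrays did. In bulk RNA such as this, a change in the number of cells and a change in the RNA per cell cannot be told apart.

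The response was late. At 1 h no gene differed from DMSO at an adjusted p under 0.05 (limma, Benjamini-Hochberg over 11807 genes) in either line, while 685 genes in alpha-TC1 and 688 in beta-TC3 had an unadjusted p under 0.05. At 6 h the fit called 31 genes in alpha-TC1, 0.263% of those tested, of which 18 were higher and 13 lower. It called 1 gene in beta-TC3 at 6 h, or 0.00847%. At 24 h it called 800 genes in alpha-TC1 (6.78%) and 990 in beta-TC3 (8.38%). In alpha-TC1 304 of these rose (2.57%) and 496 fell (4.2%), and in beta-TC3 394 rose (3.34%) and 596 fell (5.05%). Changes of at least 2-fold were nearly all rises, with 43 higher and 3 lower in alpha-TC1 and 48 higher and 2 lower in beta-TC3.

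The share of rises among called genes turned on how the arrays were scaled. At 24 h in alpha-TC1 38% of the called genes were higher as deposited, 53.8% after quantile normalization and 55.9% with arrays centred on their medians. In beta-TC3 these shares were 39.8%, 51.8% and 63.4%, and in alpha-TC1 at 6 h 58.1%, 74.1% and 61.1%. The counts also rested on single arrays. Leaving out replicate 1, 2 or 3 of 5-azadeoxycytidine gave 492, 400 or 357 genes in alpha-TC1 at 24 h. In beta-TC3 567 genes were called without replicate 1 and 376 without replicate 3.

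Genes were then divided by their level in DMSO. A mean log2 level below 5 was taken as near background. Among 46 sensory receptor and other tissue-restricted genes used to place that level, 45 lay below it in alpha-TC1 at 24 h (median 3.23) and all 46 in beta-TC3 (median 3.13). The exception, the milk protein gene Csn3 in alpha-TC1, had a DMSO mean of 5.46. Of the 6009 genes near background in alpha-TC1 at 24 h, 94 rose (1.56%) and 33 fell (0.549%). Of the 5798 expressed genes, 210 rose (3.62%) and 463 fell (7.99%). In beta-TC3 85 of 5925 genes near background rose (1.43%) and 50 fell (0.844%), while 309 of 5882 expressed genes rose (5.25%) and 546 fell (9.28%). So most of the genes that rose were already expressed in DMSO. Most of those that fell were too, but genes near background can hardly fall, so falls are not compared between the classes. The median rise was 0.69 near background and 0.64 among expressed genes in alpha-TC1, and 0.63 and 0.53 in beta-TC3.

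**Figure D1:**
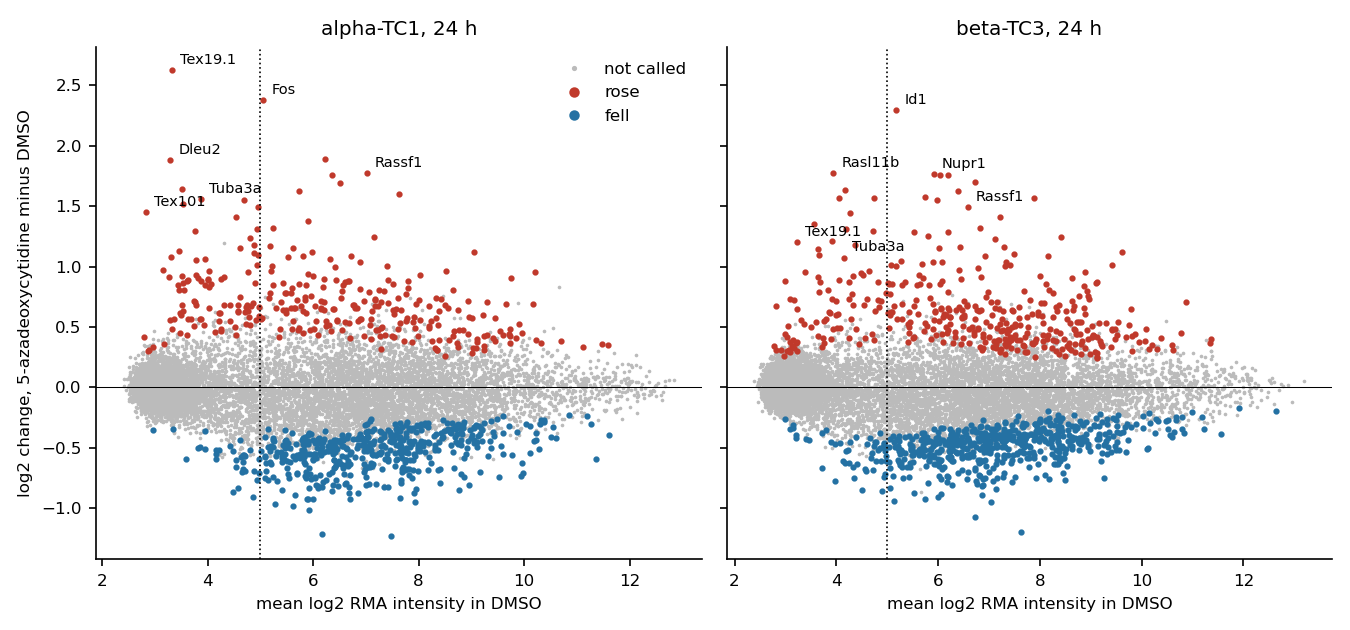
Each point is one of the 11807 genes at 24 h, with the mean log2 intensity of the DMSO arrays on the horizontal axis and the log2 change under 5-azadeoxycytidine on the vertical axis, for alpha-TC1 on the left and beta-TC3 on the right. Red points rose and blue points fell at an adjusted p under 0.05, grey points were not called, and the dotted line marks the level of 5; Tex19.1 reaches 2.63 in alpha-TC1 and 1.20 in beta-TC3.

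Rises in both level classes often left the range of the controls. All 3 arrays of 5-azadeoxycytidine lay above the highest of the 14 DMSO arrays for 53 of the 94 risen genes near background and for 139 of the 210 risen expressed genes. In beta-TC3 this held for 25 of 85 and 115 of 309, against 12 DMSO arrays. The genes were called from these same arrays, so the counts describe the calls and are not separate evidence for them. The mean under 5-azadeoxycytidine passed the level of 5 for 39 of the 94 genes in alpha-TC1 and 26 of the 85 in beta-TC3, and the others stayed below it. Around the limit itself, Serpini1 with a DMSO mean of 4.95 and Fos with 5.05 fell on either side of it in alpha-TC1.

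Among the germline genes, Tex19.1, a germ cell and placental protein whose gene is kept methylated in somatic cells, gave 6.12, 6.47 and 5.26 in alpha-TC1 after 24 h of 5-azadeoxycytidine, against a DMSO range of 3.03 to 3.78 with a median of 3.27. All 3 arrays stood well clear of the 14 controls, and set against the DMSO arrays of their own batch they were higher by 2.71, 2.98 and 1.97. The fitted change was 2.63 ± 0.23 (SE; adjusted p = 7.5e-14), the highest of all genes in that line. In beta-TC3 Tex19.1 gave 3.54, 4.87 and 5.02, against a DMSO range of 2.91 to 3.54 with a median of 3.22. There 2 of the 3 arrays were above every control and replicate 1 was not. The change was 1.20 ± 0.14 (adjusted p = 1.8e-09), and it was 1.69 without replicate 1. The rise in alpha-TC1 exceeded that in beta-TC3 by 1.42 ± 0.28 (adjusted p = 0.00062).

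Tuba3a, a testis alpha-tubulin, gave 4.90, 5.75 and 5.60 in alpha-TC1, against 3.71 to 4.19 in DMSO with a median of 3.86. Every treated array lay above every control, and the change was 1.56 ± 0.17 (adjusted p = 1.9e-10). In beta-TC3 it gave 5.21, 5.03 and 5.52, against 3.76 to 4.39 in DMSO with a median of 4.19, again without overlap, and the change was 1.07 ± 0.13 (adjusted p = 2.1e-09). The line difference of 0.48 was not called (adjusted p = 0.49). Both probe sets of Tuba3a carry suffixes that mark possible cross-reaction with related transcripts, so the signal of the near-identical Tuba3b cannot be told apart from it. The other probe set gave 1.82 in alpha-TC1 and 1.16 in beta-TC3.

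Tex101, a germ cell surface glycoprotein needed for sperm to reach the egg, rose in alpha-TC1. Its arrays gave 4.12, 4.37 and 4.19, against 2.61 to 3.13 in DMSO with a median of 2.84, and the change was 1.45 ± 0.12 (adjusted p = 1.9e-15). In beta-TC3 it gave 2.93, 2.86 and 3.08, against 2.63 to 3.04 in DMSO, with a change of 0.14 ± 0.09 (adjusted p = 0.44). The difference between the lines was 1.31 (adjusted p = 3.4e-11). Even after its rise Tex101 stayed below the level of 5.

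These 3 were the only risen members of a list of 53 germline genes in alpha-TC1, or 5.66% against 2.57% of all genes tested, and no member fell. In beta-TC3 2 members rose (3.77%, against 3.34% of all genes) and 2 fell, the meiotic cohesin Rec8 and the testis heat shock gene Hspa2. Rec8 fell by 0.66 and Hspa2 fell by 0.41, and both calls ended without replicate 3 (adjusted p = 0.17 and 0.2), that of Hspa2 also without replicate 2 (0.22). The median change of the list was 0.03 in alpha-TC1 and 0.00 in beta-TC3, against −0.03 and −0.02 for all genes. Of its members 51 were near background in alpha-TC1 and 49 in beta-TC3. Tex19.1 and Tuba3a, the risen members in beta-TC3, had been named beforehand as markers of this response. The list itself was chosen with earlier results of these data known, so its shares are a description only.

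The windows around the starts of these genes are printed because Tex19.1, Tuba3a and Tex101 rose together near background in alpha-TC1, and because Rassf1, described next, rose in both lines. Each runs from 250 bases before to 50 bases after a start in RefSeq (mouse, GRCm38.p6), 5′ to 3′ on the gene's strand, with CpG pairs in capitals. Tex19.1 lies at chr11:121145893-121146192 (plus strand, 16 CpG), Tuba3a at chr6:125286032-125286331 (minus strand, 12 CpG) and Tex101 at chr7:24672001-24672300 (minus strand, 19 CpG). Rassf1 has a pair of starts, at chr9:107551305-107551604 and chr9:107554333-107554632 (plus strand, 27 CpG each), and the probe set was not assigned to either.
Tex19.1: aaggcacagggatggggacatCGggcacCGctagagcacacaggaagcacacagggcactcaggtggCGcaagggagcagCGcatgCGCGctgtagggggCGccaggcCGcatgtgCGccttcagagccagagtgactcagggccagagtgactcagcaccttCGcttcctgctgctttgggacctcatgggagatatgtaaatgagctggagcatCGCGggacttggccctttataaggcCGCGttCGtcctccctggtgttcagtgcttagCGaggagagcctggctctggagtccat
Tuba3a: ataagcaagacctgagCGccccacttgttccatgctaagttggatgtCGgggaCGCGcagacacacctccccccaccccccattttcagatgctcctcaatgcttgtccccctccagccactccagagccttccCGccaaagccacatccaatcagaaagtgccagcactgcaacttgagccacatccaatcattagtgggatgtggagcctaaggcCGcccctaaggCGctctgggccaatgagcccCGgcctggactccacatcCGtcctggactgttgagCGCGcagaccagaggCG
Tex101: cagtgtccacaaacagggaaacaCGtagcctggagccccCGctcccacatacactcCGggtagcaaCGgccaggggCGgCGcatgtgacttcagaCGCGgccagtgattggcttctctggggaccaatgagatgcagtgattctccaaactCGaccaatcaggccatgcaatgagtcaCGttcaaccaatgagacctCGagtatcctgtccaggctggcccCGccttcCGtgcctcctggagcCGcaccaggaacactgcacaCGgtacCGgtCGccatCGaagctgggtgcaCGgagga
Rassf1, first start: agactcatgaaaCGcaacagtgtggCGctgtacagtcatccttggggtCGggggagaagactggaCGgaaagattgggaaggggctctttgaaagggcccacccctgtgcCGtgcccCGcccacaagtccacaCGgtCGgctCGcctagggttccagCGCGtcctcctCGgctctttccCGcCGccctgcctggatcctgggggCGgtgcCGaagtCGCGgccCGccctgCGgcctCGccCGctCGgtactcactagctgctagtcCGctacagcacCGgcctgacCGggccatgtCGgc
Rassf1, second start: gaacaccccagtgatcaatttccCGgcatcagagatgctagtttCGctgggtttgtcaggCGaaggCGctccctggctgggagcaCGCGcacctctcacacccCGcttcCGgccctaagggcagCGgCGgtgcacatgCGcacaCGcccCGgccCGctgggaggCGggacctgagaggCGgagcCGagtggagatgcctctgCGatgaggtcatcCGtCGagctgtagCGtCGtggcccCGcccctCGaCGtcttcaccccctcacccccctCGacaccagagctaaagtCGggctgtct
Where a gene had several windows, the one with the most CpG was counted. The median window of all 9425 genes with one held 19 CpG. Among expressed genes at 24 h the risen ones had a median of 24 CpG in alpha-TC1 (169 genes with a window) and 26 in beta-TC3 (255), against 24 for all expressed genes in each line. For the risen genes near background no comparison is drawn, since only 77.7% of them in alpha-TC1 and 74.1% in beta-TC3 had a window in the table. Of all genes near background 77.2% and 76.8% had one.

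Rassf1, a tumour suppressor whose promoter is often methylated in cancers, was already expressed in DMSO. In alpha-TC1 at 24 h it gave 8.71, 8.89 and 8.79, against 6.76 to 7.22 in DMSO with a median of 7.07. The change of 1.78 ± 0.12 had the lowest adjusted p in that line, 1.9e-18. In beta-TC3 it gave 7.71, 8.21 and 8.33, against 6.27 to 6.83 in DMSO with a median of 6.59, and the change was 1.49 ± 0.11 (adjusted p = 7.9e-17). No treated array overlapped the controls in either line, and the line difference of 0.29 was not called (adjusted p = 0.71).

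**Figure D2:**
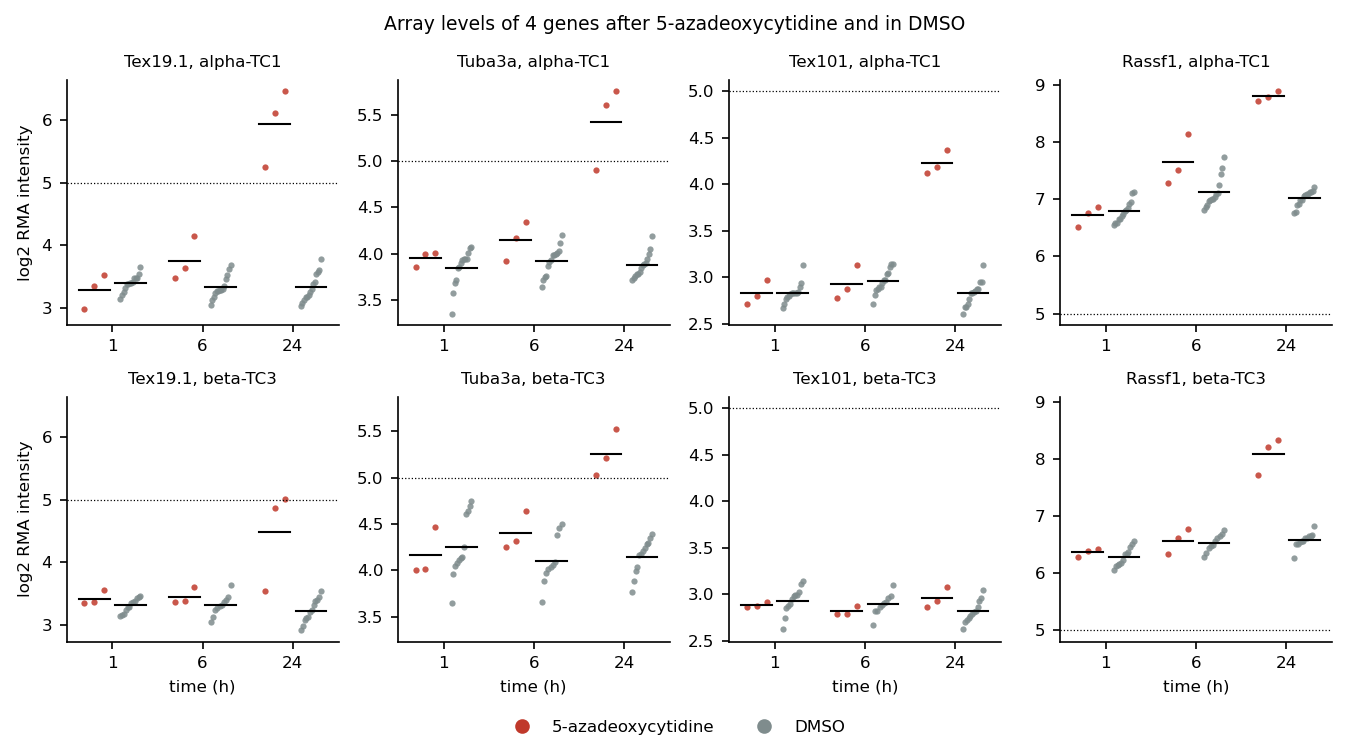
Log2 intensity of Tex19.1, Tuba3a, Tex101 and Rassf1 at 1, 6 and 24 h in alpha-TC1 (top row) and beta-TC3 (bottom row), with one red point per 5-azadeoxycytidine array, one grey point per DMSO array, black bars at the group means and a dotted line at the level of 5. At 24 h the treated arrays of Tex19.1 in alpha-TC1 lie between 5.26 and 6.47 and the DMSO arrays at or below 3.78.

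At 6 h only Rassf1 and Tex19.1 of these 4 genes were called, and only in alpha-TC1. There Rassf1 gave 7.51, 7.29 and 8.14 at 6 h, against 6.80 to 7.74 in DMSO, a change of 0.61 ± 0.11 (adjusted p = 0.0022). Tex19.1 gave 3.48, 3.63 and 4.15 at 6 h, against 3.05 to 3.69, a change of 0.53 ± 0.13 (adjusted p = 0.049). Only replicate 3 lay above all DMSO arrays for either gene. Without that replicate neither call held, with changes of 0.42 for Rassf1 (adjusted p = 0.066) and 0.29 for Tex19.1 (0.37). Without replicate 1 the adjusted p was 0.12 for Rassf1 and 0.15 for Tex19.1, and without replicate 2 it was 0.2 for Tex19.1. The 24 h change exceeded the 6 h change by 1.17 for Rassf1 (adjusted p = 1e-07), 2.10 for Tex19.1 (7.5e-09), 1.28 for Tuba3a (3.5e-05) and 1.47 for Tex101 (2.7e-13) in alpha-TC1. In beta-TC3 none of these 4 genes was called at 6 h, and the gain by 24 h was 1.43 for Rassf1 (adjusted p = 3.4e-11) and 1.12 for Tex19.1 (1.4e-05).

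Beyond the germline genes, the leading rises near background in alpha-TC1 were a mixed group of 5 genes. Dleu2, a non-coding RNA gene that hosts microRNAs, gave 5.34, 4.98 and 4.95, against 2.94 to 3.83 in DMSO, and rose by 1.88 ± 0.17 (adjusted p = 1.2e-13). Tm4sf1, a membrane protein of the tetraspanin type, gave 5.42, 5.33 and 4.87, against 3.09 to 3.93, and rose by 1.65 ± 0.17. The other probe set of Tm4sf1, with a DMSO mean of 2.94, changed by 0.06 and was not called. Ptpn4, a cytoplasmic tyrosine phosphatase, gave 4.68, 5.04 and 5.09, against 3.16 to 3.90, and rose by 1.52 ± 0.16. Selenop, the selenium carrier of plasma, and Serpini1, the protease inhibitor neuroserpin, rose by 1.55 and 1.49 from higher levels in DMSO, with medians of 4.86 and 5.04. For all 5 genes the treated arrays lay above every control. Tm4sf1 and Ptpn4 changed by 0.01 and −0.17 in beta-TC3 and differed between the lines by 1.64 and 1.69 (adjusted p = 7.5e-10 each). Dleu2 was expressed in beta-TC3, with a DMSO mean of 6.03, and rose there by 0.86 (adjusted p = 0.00029).

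Besides Rassf1, 7 expressed genes led the rises in alpha-TC1. Fos, the AP-1 subunit induced within minutes of a stimulus, gave 7.34, 7.95 and 7.15, against 3.56 to 6.03 in DMSO with a median of 5.16, and rose by 2.38 ± 0.26 (adjusted p = 2e-10). Its partner Jun rose by 1.63 ± 0.23, the transcription factor Klf4 by 1.89 ± 0.25 and Gadd45g, a growth arrest gene, by 1.69 ± 0.17. The other probe set of Jun, with a DMSO mean of 4.69, changed by 0.05 and was not called. Id3, an inhibitor of helix-loop-helix factors, gave 8.90, 9.69 and 9.43, against 6.91 to 8.17, and rose by 1.60 ± 0.17. Txnip, which binds and inhibits thioredoxin, gave 6.96, 8.48 and 8.16, against 5.07 to 7.19, and rose by 1.76 ± 0.25 with replicate 1 inside the control range. Phf20l1, a reader of methylated lysine, rose by 1.38 ± 0.24, while its other probe sets changed by 0.48 and 0.05 and were not called. Its change in beta-TC3 was 0.16, and the line difference was 1.22 (adjusted p = 0.003).

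The falls in alpha-TC1 were smaller. Tenm4, a teneurin of cell contacts, gave 6.41, 6.21 and 6.49, against 7.16 to 7.85 in DMSO with a median of 7.43, and fell by 1.23 on the log2 scale (adjusted p = 0.00057). Cfap61, a cilium and flagellum protein, gave 4.62, 4.66 and 5.25, against 5.74 to 6.44, and fell by 1.22. Oxld1, the F-box gene Fbxw4, the protocadherin Pcdhb21, the vesicle fusion gene Stx8, the sialyltransferase St6galnac5 and the cohesin loader Nipbl fell by 0.93 to 1.01. For all 8 genes every treated array was below every control. Tenm4 fell in beta-TC3 too, by 0.92 (adjusted p = 1e-04), while Cfap61 there changed by 0.14 and differed between the lines by −1.36 (adjusted p = 8e-06).

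In beta-TC3 other genes led. Near background, Rasl11b, a small Ras-like GTPase, gave 5.30, 5.83 and 6.20, against 3.67 to 4.25 in DMSO with a median of 3.98, and rose by 1.77 ± 0.16 (adjusted p = 2.8e-14). Myc, the growth regulator, gave 5.40, 5.99 and 6.44, against 3.74 to 4.59, and rose by 1.63 ± 0.17. Plk2, a stress-responsive polo-like kinase, gave 6.25, 6.35 and 6.68, against 3.96 to 5.37, and rose by 1.56 ± 0.27. None of these 9 arrays overlapped its controls. Ccn3, a secreted matrix protein, rose by 1.57, the decoy receptor Tnfrsf22 by 1.35, the lactate carrier Slc16a1 by 1.31 and the phosphodiesterase Gpcpd1 by 1.30.

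Among the expressed genes of beta-TC3, Id1, a helix-loop-helix inhibitor, gave 7.62, 7.61 and 9.04, against 4.54 to 6.52 in DMSO with a median of 5.04, and rose by 2.30 ± 0.24 (adjusted p = 2.3e-11). Nupr1, a stress-induced chromatin protein, gave 7.75, 7.06 and 7.85, against 5.09 to 6.78, and rose by 1.76 ± 0.25. Gadd45b, a damage and stress gene, gave 7.77, 8.32 and 8.27, against 5.89 to 6.62, and rose by 1.76 ± 0.14. In each of the 3 the treated arrays were above all 12 controls. Mycn, the neural relative of Myc, rose by 1.76, Fos by 1.70, Jun by 1.63, the early response gene Ier3 by 1.58 and Neat1, the RNA scaffold of paraspeckles, by 1.57. The other probe set of Jun changed by 0.48 and was not called. Only 2 of the 3 arrays of Neat1, at 8.63, 9.64 and 9.93, were above the highest control of 8.71.

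Of the falls in beta-TC3, the palmitoyltransferase Zdhhc14 gave 6.59, 6.58 and 6.26, against 7.27 to 7.97 in DMSO, and fell by 1.20 (adjusted p = 3.6e-09). Polrmt, the RNA polymerase of mitochondria, gave 5.39, 6.41 and 5.80, against 6.17 to 7.17, and fell by 1.07 (adjusted p = 0.00015) with replicate 2 among the controls. Myt1l, a repressor of non-neuronal genes, fell by 0.89 and Tacc2, a centrosome-associated protein, by 0.95, both without overlap. Nudt7, a peroxisomal hydrolase, fell by 0.88 with 1 array below the controls. Dock8, a guanine exchange factor, and Pla2g2d, a secreted phospholipase, fell by 0.94 and 0.91, but the call of Dock8 ended without replicate 2 (adjusted p = 0.066) and that of Pla2g2d without replicate 1 (0.12).

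The responses of the lines overlapped in part. Of the risen genes 125 were shared at 24 h, 41.1% of those of alpha-TC1 and 31.7% of those of beta-TC3. Of the fallen genes 157 were shared, 31.7% and 26.3%, and 0 genes were called in opposite directions. When the difference itself was tested, 79 genes (0.669%) differed at 24 h, 35 with the higher change in alpha-TC1 and 44 with the higher change in beta-TC3. Without replicate 1, 2 or 3 this count was 40, 33 or 20. Nupr1 showed the widest gap of the named genes, with a change of −0.31 in alpha-TC1 (adjusted p = 0.66) and 1.76 in beta-TC3, a difference of −2.07 (adjusted p = 0.0003). Slc16a6, a member of the monocarboxylate carrier family, differed by −1.54, Ier3 by −1.49, Ccn3 by −1.45, Mycn by −1.38, Rasl11b by −1.36 and Myc by −1.07. At 6 h and at 1 h no gene differed between the lines at an adjusted p under 0.05 (limma), where 639 and 634 genes passed an unadjusted p of 0.05.

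The list of immediate early genes had the highest share of risen members among the lists in each line. The lists were chosen with earlier results of these data known, so this ranking is a description only. Immediate early genes are transcription factors and regulators that cells switch on without new protein, and the list also holds Txnip, Gadd45b and Gadd45g. Of 28 members 13 rose in alpha-TC1 at 24 h (46.4%) and none fell, with a median change of 0.43. In beta-TC3 15 rose (53.6%) and 1, Jund, fell, with a median of 0.76. Besides those named above, Junb rose by 0.97 in alpha-TC1 and 0.91 in beta-TC3, Nr4a1 by 0.88 and 0.59, Klf6 by 1.16 and 1.04, and the phosphatase Dusp1 by 0.60 and 1.09. Egr1 and Fosb, classical members, changed by 0.18 and −0.04 in alpha-TC1 and by 0.21 and 0.19 in beta-TC3 and were not called. The genes were not flat in the controls. Fos had a DMSO median of 7.61 at 1 h, 5.62 at 6 h and 5.16 at 24 h in alpha-TC1, so its 24 h level under 5-azadeoxycytidine, 7.15 to 7.95, lay within the range of 7.15 to 8.24 that the 1 h controls had. In beta-TC3 the DMSO medians of Fos were 7.70, 6.84 and 6.74 at these times. The immediate early gene changes were tested only against DMSO of the same time.

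**Figure D3:**
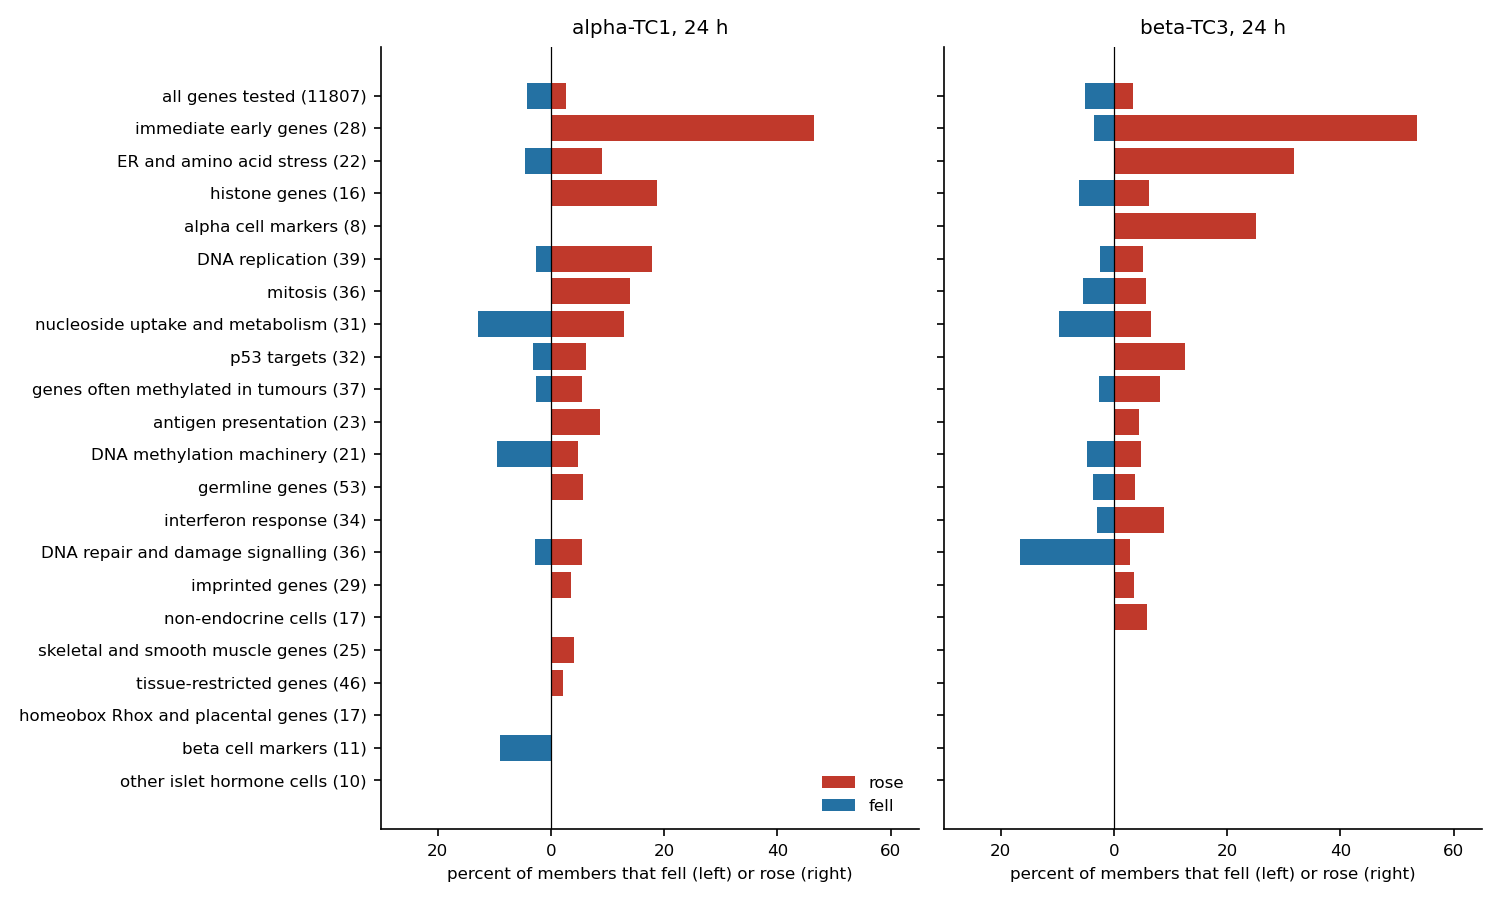
Percent of the members of each gene list that fell (blue, left) or rose (red, right) at 24 h under 5-azadeoxycytidine at an adjusted p under 0.05, for alpha-TC1 on the left and beta-TC3 on the right, with all genes tested as the top row. Immediate early genes reach 46.4% and 53.6% risen, against 2.57% and 3.34% of all genes. The lists were chosen with earlier results of these data known.

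Among the 21 genes of the DNA methylation machinery, Dnmt1, the maintenance methyltransferase and a target of the drug, was not called. It gave 7.98, 8.15 and 8.21 in alpha-TC1, against 7.97 to 8.56 in DMSO (change −0.11, adjusted p = 0.74), and 7.77, 7.66 and 8.05 in beta-TC3, against 7.33 to 8.12 (0.11, 0.69). Its partner Uhrf1, which brings it to half-methylated DNA, changed by 0.10 and 0.18, and Dnmt3b by 0.39 and −0.06, with no call. Hells, a remodeller needed for DNA methylation, rose in both lines. It gave 8.18, 8.54 and 8.62 in alpha-TC1, against 7.06 to 7.85 (1.00 ± 0.18, adjusted p = 5.4e-05), and 8.46, 8.34 and 8.87 in beta-TC3, against 7.77 to 8.46 (0.53 ± 0.13, 0.005), where the call ended without replicate 3 (0.076). Dnmt3a, a de novo methyltransferase, fell in both lines. It gave 5.64, 5.16 and 5.23 in alpha-TC1, against 5.47 to 6.62 (−0.59, adjusted p = 0.047), and 7.19, 7.07 and 7.11 in beta-TC3, against 7.49 to 8.54 (−0.63, 0.00069). In alpha-TC1 the Dnmt3a call ended without any one of the 3 replicates (adjusted p = 0.084, 0.24 and 0.19). Mbd2, a methyl-CpG reader, fell by 0.31 in alpha-TC1, and that call ended without replicate 1 (0.11) or 3 (0.14).

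For nucleoside handling, 4 of 31 members rose and 4 fell in alpha-TC1 (12.9% each, against 2.57% and 4.2% of all genes). In beta-TC3 2 rose (6.45%, against 3.34%) and 3 fell (9.68%, against 5.05%). Dck, the kinase that activates 5-azadeoxycytidine, rose by 0.57 in alpha-TC1 (adjusted p = 0.027) and 0.42 in beta-TC3 (0.022), and Rrm2, a subunit of ribonucleotide reductase, by 0.69 (0.017) and 0.76 (0.033). These calls were fragile. Without any 1 replicate Dck lost its call in both lines (adjusted p from 0.053 to 0.19), and Rrm2 lost it without replicate 2 or 3 in alpha-TC1 (0.064 and 0.18) and without replicate 1 or 3 in beta-TC3 (0.17 and 0.28). Uck1, a uridine-cytidine kinase, gave 8.06, 8.25 and 8.07 in alpha-TC1, against 7.25 to 7.80, and rose by 0.64 (adjusted p = 0.00041). Slc29a1, a nucleoside transporter, changed by 0.03 and −0.10, with no call.

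Some replication and mitosis genes rose in alpha-TC1 and some repair genes fell in beta-TC3, while most members of these lists were not called. In alpha-TC1 7 of 39 replication genes rose (17.9%) and 1 fell, and 5 of 36 mitosis genes rose (13.9%) and none fell, against 2.57% of all genes that rose. Ccne2, a cyclin that starts S phase, rose by 0.89, the origin protein Orc1 by 0.83, the loading factor Cdc6 by 0.74 and Mcm10 by 0.56, and Kif23 and Racgap1 of the dividing furrow by 0.93 and 0.66. Kif23 was near background, with a DMSO mean of 3.52, and its other probe set changed by 0.05. The other probe set of Racgap1, at a like DMSO mean (8.62, against 8.56), changed by 0.08 and was not called. In beta-TC3 2 replication genes rose (5.13%) and 1 fell, and 2 mitosis genes rose (5.56%) and 2 fell, against 3.34% and 5.05% of all genes. Among 36 repair and damage genes 2 rose (5.56%, against 2.57%) and 1 fell in alpha-TC1, while 1 rose and 6 fell in beta-TC3 (16.7%, against 5.05% of all genes). The nuclease Exo1 rose by 0.72 in alpha-TC1 (adjusted p = 4.3e-06), and Cdc6 and Exo1 differed between the lines by 0.76 (0.031) and 0.59 (0.034). Timeless, of the fork protection complex, fell by 0.56 in beta-TC3 (0.00033), and the checkpoint kinase Chek2 fell by 0.73 (0.0062), a call that ended without replicate 3 (0.17). Cdkn1a, the arrest gene downstream of p53, gave 8.63, 8.66 and 8.53 in alpha-TC1, against 7.27 to 8.76 (0.39, adjusted p = 0.24), and 9.28, 9.46 and 9.36 in beta-TC3, against 8.73 to 9.38 (0.40, 0.015). In beta-TC3 that call ended without replicate 2 (0.13) or 3 (0.069). Of 32 p53 targets 2 rose (6.25%, against 2.57% of all genes) and 1 fell in alpha-TC1, and 4 rose in beta-TC3 (12.5%, against 3.34%).

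Of 29 imprinted genes Impact alone rose in each line (3.45%, against 2.57% of all genes in alpha-TC1 and 3.34% in beta-TC3), by 0.39 in alpha-TC1 (adjusted p = 0.039), a call that ended without replicate 2 (0.26) or 3 (0.29), and by 0.90 in beta-TC3 (5e-09). Igf2, imprinted and high in beta-TC3, gave 10.75, 10.75 and 10.92 there, against 10.20 to 11.19 in DMSO, with a change of 0.07. None of 17 placental and Rhox genes, and none of 10 genes of other islet hormone cells, was called in either line. Of 25 muscle genes 1 rose in alpha-TC1 (4%, against 2.57% of all genes), Mybph, by 0.36, and none in beta-TC3. Of 8 alpha cell markers 2 rose in beta-TC3 (25%, against 3.34% of all genes), Irx2, a homeobox factor, and Slc7a2, an amino acid carrier. There the alpha cell markers Irx1, Pou3f4 and Ttr averaged 2.92, 3.10 and 12.86, against 3.08, 2.88 and 12.87 in DMSO. Gcg, given above, was not called. Irx2 gave 5.45, 5.72 and 6.09, against 4.77 to 5.67, and rose by 0.77 (adjusted p = 6.5e-05), while Slc7a2 rose by 0.56 (0.047), a call lost without replicate 1 (0.23) or 3 (0.29). Of 11 beta cell markers G6pc2, a glucose-6-phosphatase of islets, fell by 0.85 in alpha-TC1 (0.028), where 4.2% of all genes fell. The G6pc2 call was lost without any 1 replicate (0.056 to 0.25). Interferon response genes, a common readout of the drug in human tumour cells, had 0 of 34 called in alpha-TC1 and 3 risen (8.82%, against 3.34% of all genes) and 1 fallen (2.94%, against 5.05%) in beta-TC3. There Cxcl10, a chemokine, gave 3.82, 5.05 and 4.26, against 3.02 to 3.65, and rose by 0.96 (adjusted p = 1.1e-05), or by 0.63 without replicate 2.

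Zebuarine, which reads as zebularine, is another cytidine analogue that inhibits DNA methyltransferases. Its base lacks the amino group of cytosine and its sugar is ribose, where 5-azadeoxycytidine has deoxyribose. Against the same DMSO arrays, at the same dose and time, 0 genes were called for zebuarine in alpha-TC1 at 24 h (898 at an unadjusted p under 0.05). In beta-TC3 397 were called (3.36%), of which 182 rose and 215 fell. RG-0108, known here by its code name only, had 0 genes called in either line (745 and 651 at an unadjusted p under 0.05). The comparisons share their controls, so only the direct difference between compounds was tested. In alpha-TC1 731 genes (6.19%) differed between 5-azadeoxycytidine and zebuarine, 276 higher (2.34%) and 455 lower under 5-azadeoxycytidine. That count was 59 without the arrays of plate 1, where 2 of the 3 zebuarine arrays lay. It was 229 without zebuarine replicate 2 and 330 without zebuarine replicate 3. In beta-TC3 27 genes (0.229%) differed, 12 higher and 15 lower, or 1 without replicate 3 of 5-azadeoxycytidine, and 4 and 11 without zebuarine replicate 1 or 3. The 95% interval of a difference, for a single gene without adjustment, had a median half-width of 0.315 in alpha-TC1 and 0.277 in beta-TC3. Calls needed an adjusted p over all genes, so for most genes only differences larger than that could be called.

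Tex19.1 and Tuba3a were higher under 5-azadeoxycytidine than under zebuarine in both lines. In alpha-TC1 Tex19.1 gave 6.12, 6.47 and 5.26 under 5-azadeoxycytidine and 3.02, 3.42 and 3.22 under zebuarine, a difference of 2.73 (95% interval 2.16 to 3.29, adjusted p = 9.7e-11). In beta-TC3 it gave 3.54, 4.87 and 5.02 under 5-azadeoxycytidine and 3.43, 3.13 and 3.32 under zebuarine, a difference of 1.18 (0.848 to 1.52, 1.1e-05). For Tuba3a the differences were 1.83 in alpha-TC1 (1.41 to 2.24) and 0.843 in beta-TC3 (0.542 to 1.14, adjusted p = 0.0013). Against DMSO, the zebuarine changes in alpha-TC1 and beta-TC3 were −0.10 and 0.02 for Tex19.1 and −0.27 and 0.23 for Tuba3a, with no call.

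Rassf1 and the early genes behaved otherwise in beta-TC3. There Rassf1 gave 7.71, 8.21 and 8.33 under 5-azadeoxycytidine and 8.10, 7.74 and 7.69 under zebuarine, a difference of 0.246 (−0.0212 to 0.513, adjusted p = 0.7). Fos gave 8.39, 8.38 and 9.03 under 5-azadeoxycytidine and 8.99, 8.09 and 8.13 under zebuarine, a difference of 0.20 (−0.149 to 0.55, 0.87). Ier3 differed by 0.21 (−0.0908 to 0.511) and Gadd45b by 0.364 (0.026 to 0.702, adjusted p = 0.6). These intervals leave room for a modest excess under 5-azadeoxycytidine and do not show that the compounds act alike. In alpha-TC1 Ier3 differed by 0.275 (−0.152 to 0.701, adjusted p = 0.56), with no call, while 3 of these 4 genes were called, Rassf1 with a difference of 1.73 (1.43 to 2.03), Fos of 2.26 (1.62 to 2.89) and Gadd45b of 1.28 (0.85 to 1.71). Of the 28 immediate early genes 14 rose under zebuarine in beta-TC3, against 1.54% of all genes, with a median change of 0.61. In alpha-TC1, where no gene was called for zebuarine and 2 of its 3 arrays lay on plate 1, the median was 0.04.

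A few genes were lower under 5-azadeoxycytidine than under zebuarine in beta-TC3. Gas8, a part of the ciliary dynein regulator, changed by −0.27 under 5-azadeoxycytidine and 0.97 under zebuarine, a difference of −1.23 (adjusted p = 0.0048), and Snx6, a sorting nexin, by −0.71 and 0.18, a difference of −0.89 (0.0013). The Gas8 difference was lost without replicate 2 or 3 of 5-azadeoxycytidine (adjusted p = 0.073 and 0.057) and without zebuarine replicate 1 or 2 (0.14 and 0.067), and that of Snx6 without replicate 3 of 5-azadeoxycytidine (0.12) or zebuarine replicate 1 (0.083). Against RG-0108, 349 genes differed in alpha-TC1 (2.96%) and 531 in beta-TC3 (4.5%). These counts were 557 and 343 without the arrays of plate 1. With 1 array left out, the alpha-TC1 count was 180 or 194 without replicate 2 or 3 of 5-azadeoxycytidine, and 148, 214 or 214 without RG-0108 replicate 1, 2 or 3. The beta-TC3 count was 283 without replicate 3 of 5-azadeoxycytidine and 257 without RG-0108 replicate 2. Tex19.1 exceeded its RG-0108 level by 2.69 and 1.16 and Rassf1 by 1.81 and 1.72 in alpha-TC1 and beta-TC3.

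**Figure D4:**
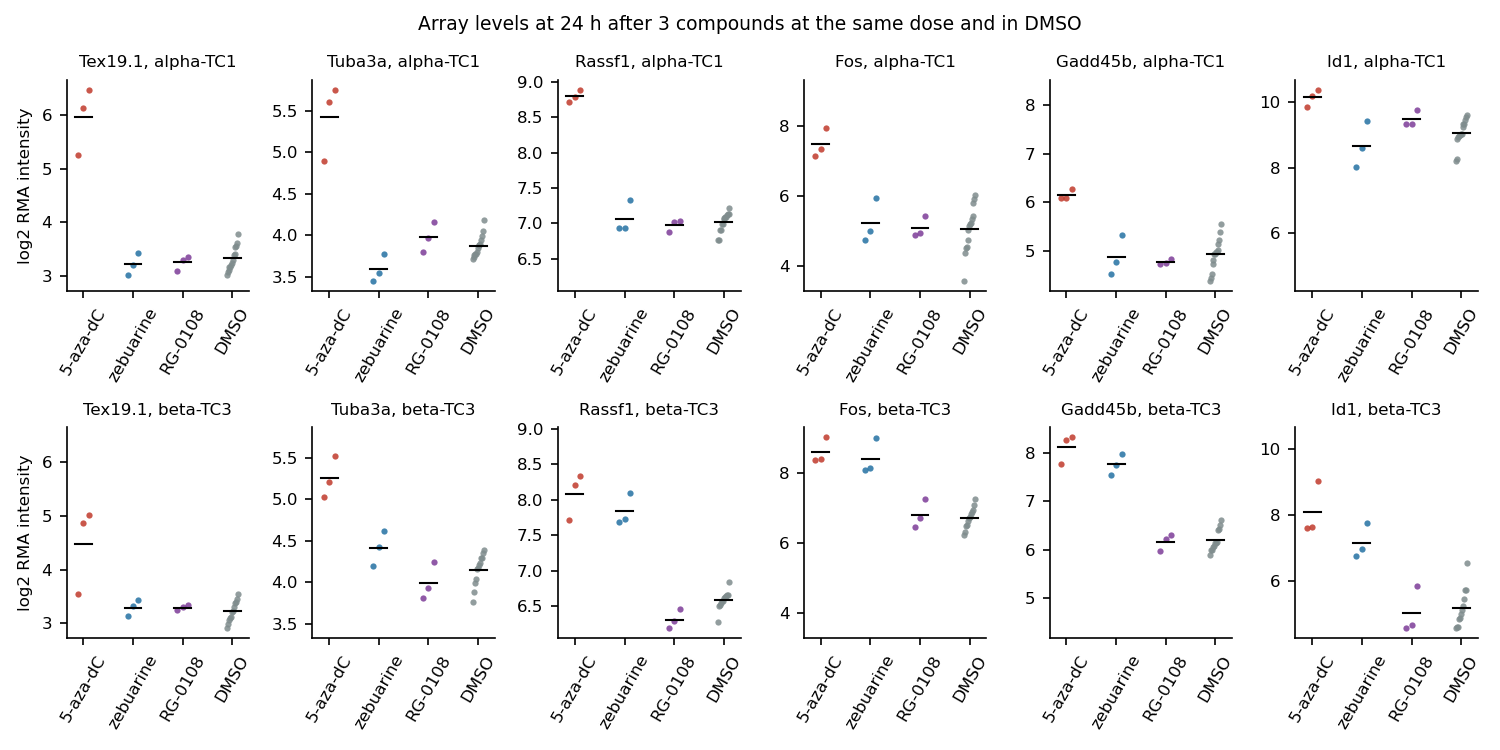
Log2 intensity at 24 h of Tex19.1, Tuba3a, Rassf1, Fos, Gadd45b and Id1 in alpha-TC1 (top row) and beta-TC3 (bottom row) under 5-azadeoxycytidine (5-aza-dC), zebuarine and RG-0108 and in DMSO, with one point per array and black bars at the means. Tex19.1 and Tuba3a are raised only in the 5-azadeoxycytidine column among the 4 shown, whereas in beta-TC3 Rassf1, Fos, Gadd45b and Id1 are raised under zebuarine too.

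The series holds 29 compounds in all, and the same fit places 5-azadeoxycytidine among them as a description. At 24 h Tuba3a was called higher for 5-azadeoxycytidine and for chaetocin alone in each line, with changes of 1.56 and 0.75 in alpha-TC1 and 1.07 and 0.33 in beta-TC3. In beta-TC3 the same pair were the only ones called higher for Tex19.1, at 1.20 and 0.47. In alpha-TC1 Tex19.1 was called higher for 8 compounds and 5-azadeoxycytidine came after ITF-2357 (4.46) and chaetocin (2.97). Rassf1 rose most under 5-azadeoxycytidine in both lines, with 6 compounds called higher in alpha-TC1 and 3 in beta-TC3. Fos, by contrast, was called higher for 20 compounds in alpha-TC1, where 5-azadeoxycytidine had rank 5, and for 11 in beta-TC3, where it was second to chaetocin (2.68).

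The few calls at 6 h were near the limit of what the arrays could show. In alpha-TC1 Creb1, the cyclic AMP response factor, gave 5.35, 4.75 and 4.98, against 3.83 to 4.71 in DMSO, and rose by 0.82 ± 0.16 (adjusted p = 0.0055). Dleu2 gave 3.91, 3.89 and 3.85, against 2.51 to 3.40, and rose by 0.80 ± 0.18 (0.024). For both every treated array was above every control, yet the Creb1 call ended without replicate 1 (adjusted p = 0.63) and that of Dleu2 without replicate 1 (0.47) or 2 (0.24). The whole count of 31 became 0 without replicate 1, 6 without replicate 2 and 91 without replicate 3. Leaving out one of DMSO replicates 2, 5, 7, 11 and 14 gave 16 to 20. In beta-TC3 the 1 gene called was Ier3, with values of 6.49, 6.34 and 6.32, against 4.95 to 6.13 in DMSO, a rise of 0.69 ± 0.13 (adjusted p = 0.018), and this call ended without any one of the 3 replicates (adjusted p = 0.062, 0.36 and 0.24). Against zebuarine, 9 genes differed in alpha-TC1 at 6 h (0.0762%), 3 of them higher (0.0254%) and 6 lower under 5-azadeoxycytidine, and this count ran from 0 to 356 when 1 array was left out. RG-0108 itself changed 5 genes against DMSO in alpha-TC1 at 6 h (0.0423%). Between 6 and 24 h the change grew or shrank detectably for 96 genes in alpha-TC1 (0.813%) and 169 in beta-TC3 (1.43%). Without replicate 1, 2 or 3, left out of both times at once, the count was 43, 18 or 84 in alpha-TC1 and 92, 108 or 37 in beta-TC3.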

How the data were processed

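RNA of 594 samples was measured on 1-colour mouse expression arrays with 22716 probe sets. The authors deposited a single matrix of intensity values, from 3.96 to 13635. Per the submitters' processing notes RMA was used, and its version is not given in the sources used here. RMA had thus already corrected the background, normalized the arrays and summarised the probes, and it damps changes near background. The values were linear, where log2 values had been assumed in the planned design, so log2 was taken from the deposited intensities and no further scaling was applied.

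Probe sets with 1 gene symbol (18003) were kept, those with several (287) or none (4426) were left out, and the probe set of highest mean stood for each of 11807 genes, 4150 of which had more than 1. Other probe sets of a named gene did not always change with the one used. For each line and time limma 3.58.1 (R 4.3.3) was fitted to all arrays with batch as a covariate. Calls needed a Benjamini-Hochberg adjusted p under 0.05 over all genes. Differences between lines and between 24 h and 6 h were contrasts in joint fits. The fits were tested on simulated data.

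Named genes were Tex19.1 and Tuba3a, 14 genes fixed by name, up to 8 rises near background, 8 rises among expressed genes and 8 falls per line at 24 h whose within-batch differences all had 1 sign, 5 per line at 6 h, 3 at 1 h, up to 4 members of a list that were called, and the 5 widest differences of each other comparison. Of the genes fixed by name, Cda and H19 were not analysed here. The genes and lists were chosen with earlier results of these data known. Csn3 and the list members named beyond this rule were added after their values were seen.

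No label says that replicate numbers pair the arrays of different compounds. As a rough check, the deviations of every same-numbered pair had to correlate above 0.1. This held for 5-azadeoxycytidine with zebuarine in alpha-TC1 at 6 h (0.118, 0.191 and 0.192) and with RG-0108 in alpha-TC1 at 24 h (0.207, 0.28 and 0.282). With zebuarine only replicate 2 shared a batch there, and with RG-0108 every same-numbered pair did. Correlations this low do not establish a pairing. Promoter windows came from RefSeq, GRCm38.p6. No label or file gives an array's precision beyond the number of arrays, which limits it here.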

Additional observations from a re-analysis of the deposited data

Results flagged for a closer look

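Dixon's test was run for 8 genes on the only group of 4 to 10 arrays, the 10 DMSO arrays of beta-TC3 at 6 h. No array stood apart there. Groups of 3 arrays cannot be tested this way, and the larger DMSO groups were not tested, so no treated array and no array at 24 h was checked. The test of the difference between responses drew attention to 79 genes between alpha-TC1 and beta-TC3 at 24 h, to 96 genes between 24 h and 6 h in alpha-TC1 and to 169 in beta-TC3. All are contrasts of the log2 change under 5-azadeoxycytidine.

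Among the named genes, the change in alpha-TC1 exceeded that in beta-TC3 for Dleu2 by 1.02, Phf20l1 by 1.22, Ptpn4 by 1.69, Serpini1 by 1.22, Tex101 by 1.31, Tex19.1 by 1.42 and Tm4sf1 by 1.64. The difference was negative, with the lower change in alpha-TC1, for Ccn3 at −1.45, Cfap61 at −1.36, Ier3 at −1.49, Myc at −1.07, Mycn at −1.38, Nupr1 at −2.07, Oxld1 at −0.84, Pcdhb21 at −0.79, Rasl11b at −1.36, Slc16a6 at −1.54 and Tnfrsf22 at −1.12. The call of Nupr1 ended without a batch term (−1.73, adjusted p = 0.053).

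In alpha-TC1 the change at 24 h exceeded that at 6 h for Dleu2 by 1.08, Fos by 1.91, Gadd45g by 1.62, Id3 by 1.00, Klf4 by 1.56, Phf20l1 by 1.15, Ptpn4 by 1.74, Rassf1 by 1.17, Serpini1 by 1.41, Tex101 by 1.47, Tex19.1 by 2.10, Tm4sf1 by 1.46, Tuba3a by 1.28 and Txnip by 1.28. The difference was negative for Cfap61 at −1.13, Fbxw4 at −0.87, Pcdhb21 at −0.81 and Stx8 at −0.82. The call of Fos ended without a batch term (adjusted p = 0.131), and that of Klf4 did so too (0.216) and without replicate 2 at both times (0.156).

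In beta-TC3 the change at 24 h exceeded that at 6 h for Fos by 1.41, Gadd45b by 1.64, Gpcpd1 by 1.46, Id1 by 1.68, Ier3 by 0.88, Jun by 1.56, Myc by 1.62, Mycn by 1.52, Neat1 by 1.66, Nupr1 by 1.76, Plk2 by 1.54, Rasl11b by 1.79, Slc16a1 by 1.06, Slc16a6 by 1.69, Tex19.1 by 1.12 and Tnfrsf22 by 0.87. The difference was negative for Myt1l at −0.67, Nudt7 at −0.77, Polrmt at −1.06 and Zdhhc14 at −1.0. The call of Neat1 ended without a batch term (adjusted p = 0.0772) and without replicate 3 at both times (0.127). That of Id1 ended without replicate 3 at both times (0.149).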

How the results depend on the processing

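Each named gene result was set against each alternative. In 1717 such pairs it stayed on its side of the threshold, in 301 a call was lost, in 1 a call was gained and in 0 a call reversed. Uncalled changes crossed 0 for Dnmt1, Dnmt3b, Igf2 and Ins2 in beta-TC3, Uhrf1 in alpha-TC1 and Slc29a1 in both lines. Counts of genes stayed within 1.5 times in 201 pairs and did not in 104. The causes were not tested. Without a batch term, the count of 5-azadeoxycytidine against DMSO was 2 in alpha-TC1 at 6 h (31 with it), 0 in beta-TC3 at 6 h (1) and 609 in beta-TC3 at 24 h (990). Against zebuarine it was 3 and 286 in alpha-TC1 at 6 and 24 h (9 and 731), and 0 and 7 in beta-TC3 at 1 and 24 h (1 and 27). Against RG-0108 it was 1 and 144 in alpha-TC1 at 6 and 24 h (2 and 349), and 0 and 289 in beta-TC3 (1 and 531). The line difference at 24 h gave 44 (79), and the gain between 6 and 24 h gave 33 in alpha-TC1 (96) and 92 in beta-TC3 (169). Only arrays of 5-azadeoxycytidine and DMSO gave 0 genes in alpha-TC1 at 6 h and 393 in beta-TC3 at 24 h. Only the batches that hold 5-azadeoxycytidine gave 2 in alpha-TC1 at 6 h, and 0 and 557 in beta-TC3 at 6 and 24 h. In alpha-TC1 at 1 h array plate as a random block gave 1 gene and quantile normalization 2, against 0. Leaving out genes below the median level gave 49 in alpha-TC1 at 6 h.

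Leaving out plate 1, and each DMSO, zebuarine or RG-0108 array in turn, was chosen after seeing the data. Without plate 1 the counts were 0 against DMSO in beta-TC3 at 6 h, 1 and 59 against zebuarine in alpha-TC1 at 6 and 24 h, 0 in beta-TC3 at 1 h, 4 and 557 against RG-0108 in alpha-TC1 at 6 and 24 h, and 343 in beta-TC3 at 24 h. Leaving out 1 array in turn, of either compared group, gave against DMSO 0 to 1, 0 to 91 and 357 to 807 genes in alpha-TC1 at 1, 6 and 24 h, and 0 to 1 and 376 to 1024 in beta-TC3 at 6 and 24 h. Against zebuarine it gave 0 to 1, 0 to 356 and 229 to 806 in alpha-TC1, and 0 to 3 and 1 to 25 in beta-TC3 at 1 and 24 h. Against RG-0108 it gave 0 to 1, 0 to 43 and 148 to 247 in alpha-TC1, and 0 to 1, 0 to 1 and 257 to 568 in beta-TC3. For differences between lines or times, the same-numbered 5-azadeoxycytidine array was left out of both sides at once. For the line difference this gave 0 to 1 at 1 h and 20 to 40 at 24 h. For the gain between 6 and 24 h it gave 18 to 84 in alpha-TC1 and 37 to 108 in beta-TC3. With a level of 6 in place of 5, rises near background numbered 138 in beta-TC3 at 24 h (85), and in beta-TC3 at 6 h 1 near background and 0 among expressed genes.

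With the replicate block, 5-azadeoxycytidine against zebuarine gave 1 gene in alpha-TC1 and 2 in beta-TC3 at 1 h, 7 and 659 in alpha-TC1 at 6 and 24 h, and 25 in beta-TC3 at 24 h. Against RG-0108 it gave 5 and 352 in alpha-TC1 at 6 and 24 h, and 587 in beta-TC3 at 24 h. In the groups that passed the rough check of correlation, the block moved no count by over 1.5 times. That check does not establish a pairing. In the other groups correlations of same-numbered arrays were as low as −0.507.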

Other observations

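Of 22 stress genes of the endoplasmic reticulum and amino acid pathway 7 rose in beta-TC3 at 24 h (31.8%, against 3.34% of all genes) and none fell, while 2 rose and 1 fell in alpha-TC1. Ddit3, a stress transcription factor, gave 8.76, 8.36 and 8.61 under 5-azadeoxycytidine, against 7.10 to 8.03 in DMSO, and rose by 1.10 (adjusted p = 0.00029, limma). Ddit4, an inhibitor of mTOR signalling, rose by 0.99 and the phosphatase subunit Ppp1r15a by 0.86. For these 3 genes every treated array lay above every control. The median change of the list was 0.13 in beta-TC3.

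Among class I antigen genes in alpha-TC1, H2-K1 gave 9.22, 8.89 and 8.83 under 5-azadeoxycytidine, against 7.55 to 8.50 in DMSO, and rose by 0.93 (adjusted p = 0.00085, limma). H2-D1 rose by 0.90 (0.0024), again without overlap, and its call ended without replicate 1 (0.0888). In beta-TC3 H2-K1 changed by 0.14 (0.68), and H2-Q4 rose by 0.71 (0.0028), a call that ended without a batch term (0.0617). Of 23 antigen presentation genes 2 rose in alpha-TC1 (8.7%, against 2.57% of all genes) and 1 in beta-TC3 (4.35%, against 3.34%). H2 genes are alike enough in sequence for probes to cross-react.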
